A study of Arabidopsis thaliana with 4 samples.

Results

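The core of ethylene perception and signalling in Arabidopsis thaliana roots was followed through 10 genes chosen by name from the known pathway: the receptors ETR1 (AT1G66340), ERS1 (AT2G40940), ERS2 (AT1G04310), ETR2 (AT3G23150) and EIN4 (AT3G04580), the kinase CTR1 (AT5G03730), the membrane protein EIN2 (AT5G03280), the transcription factor EIN3 (AT3G20770) and the F-box proteins EBF1 (AT2G25490) and EBF2 (AT5G25350). Each was found by its locus code, with isoforms summed, and all 10 had reads among 23381 loci. Roots of 6-day-old seedlings were compared in 4 groups of 1 library each: coi1-2 with 10 µM AlCl3, Col with 10 µM AlCl3, coi1-2 with 0 µM AlCl3 and Col with 0 µM AlCl3, all in 2% MGRL nutrient solution at pH 5.0. Col is the wild type. The line coi1-2 is 1 mutant, with a point mutation in COI1, whose F-box protein perceives jasmonate. Each library came from about 500 pooled seedlings. Exposure is given as 6 h in the titles and protocol but as 24 h in the series' design. The titles of both libraries without Al say 0 h, and if those roots were taken at the start, time in solution and Al cannot be told apart.

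Ethylene receptors sit mainly in the endoplasmic reticulum membrane and are active without the hormone, when they keep the kinase CTR1 at work on EIN2. Ethylene binding shuts the receptors and CTR1 off, so that the C-terminal part of EIN2 is released and reaches the nucleus, where EIN3 and its relative EIL1 accumulate and switch on response genes. EBF1 and EBF2 mark EIN3 and EIL1 for destruction. In roots the pathway is known for restraining elongation and promoting root hairs, and ethylene is a known intermediate in the inhibition of root growth by Al.

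The libraries held 7.19 M reads for coi1-2 with Al, 6.93 M for Col with Al, 7.42 M for coi1-2 without Al and 7.80 M for Col without Al (M, 1e6 reads). COI1 stood at 29.4 RPKM (reads per kilobase of transcript per 1e6 reads) in coi1-2 with Al and 19.6 in Col with Al, against 29.8 in coi1-2 without Al and 33.9 in Col without Al. Since a point mutation can leave the transcript level as it was, COI1 cannot check which line a library came from. All 8 root markers were read in all 4 libraries, with a summed level of 414.7 RPKM in coi1-2 and 314.7 in Col with Al, against 1953 in coi1-2 and 1826 in Col without Al. The 15 green shoot markers summed to 371.9 RPKM in coi1-2 and 563.9 in Col with Al, against 130.3 in coi1-2 and 96.5 in Col without Al, with LHCA1 at 0 in all 4 libraries and LHCA3 at 0 in coi1-2 with Al. The part of these shifts in the results on ethylene genes was not tested. In whole roots, fewer cells of a type and less RNA per cell cannot be told apart.

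The deposited counts hold uniquely assigned reads, and 3089 loci with several listed isoforms had a median of 0.986 RPKM, against 5.55 in the other 20292 loci. Among the 10 genes, 8 were listed with 1 isoform. CTR1 and EIN4 were listed with 2 isoforms each, and reads covered 7.31% of the first CTR1 isoform in each library and at most 3.13% of the second. Coverage of the EIN4 isoforms was at most 5.28%. The levels of CTR1 and EIN4 are therefore too low by an unknown amount, and their reads stem from short stretches of the transcript. The other 8 were covered over 57.8% to 99.3% of their length.

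Promoter sequences are shown for 5 genes listed with 1 isoform. EIN2, ETR2 and EBF2 had the largest edgeR log2 fold changes for Al over both genotypes among such genes, and EBF1 is the partner of EBF2. On the RPKM scale the log2 ratio of EBF2 was 0.40 in coi1-2 and 0.83 in Col. These were smaller in size than the ratios of EIN3, ERS1 and ETR1. ERS1 was added because it, like EBF2 and ETR2, is known to be induced by ethylene. EIN3 shifted slightly more than ERS1, but its sequence is not among those shown. Each is the 250 bases before the annotated gene start (RefSeq annotation of TAIR10.1), 5′ to 3′ in the direction of the gene: EBF2 at chr5:8797350-8797599 on the minus strand, EBF1 at chr2:10850798-10851047 on the minus strand, EIN2 at chr5:787178-787427 on the plus strand, ETR2 at chr3:8254309-8254558 on the plus strand and ERS1 at chr2:17087327-17087576 on the minus strand. Capitals mark TACAT on either strand (read as ATGTA on the other), a core of sites bound by EIN3-type factors, and in ERS1 a longer EIN3 site.
EBF2: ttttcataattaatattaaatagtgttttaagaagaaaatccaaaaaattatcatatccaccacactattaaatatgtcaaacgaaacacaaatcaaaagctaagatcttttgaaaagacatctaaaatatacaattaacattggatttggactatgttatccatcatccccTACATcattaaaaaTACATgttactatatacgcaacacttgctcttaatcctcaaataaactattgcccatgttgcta
EBF1: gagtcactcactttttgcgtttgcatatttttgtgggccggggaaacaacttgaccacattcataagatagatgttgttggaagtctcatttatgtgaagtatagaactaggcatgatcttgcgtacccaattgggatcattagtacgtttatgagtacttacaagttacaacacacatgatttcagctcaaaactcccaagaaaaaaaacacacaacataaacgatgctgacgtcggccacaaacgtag
EIN2: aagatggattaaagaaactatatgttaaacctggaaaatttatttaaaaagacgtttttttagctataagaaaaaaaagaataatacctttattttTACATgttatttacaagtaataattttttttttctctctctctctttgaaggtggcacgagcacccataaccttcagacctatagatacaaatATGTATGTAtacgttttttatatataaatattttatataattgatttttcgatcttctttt
ETR2: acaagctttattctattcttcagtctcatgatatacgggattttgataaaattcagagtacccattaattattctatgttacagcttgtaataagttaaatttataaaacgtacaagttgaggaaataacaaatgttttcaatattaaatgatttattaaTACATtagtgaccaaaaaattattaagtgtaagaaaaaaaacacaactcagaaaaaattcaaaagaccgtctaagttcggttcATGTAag
ERS1: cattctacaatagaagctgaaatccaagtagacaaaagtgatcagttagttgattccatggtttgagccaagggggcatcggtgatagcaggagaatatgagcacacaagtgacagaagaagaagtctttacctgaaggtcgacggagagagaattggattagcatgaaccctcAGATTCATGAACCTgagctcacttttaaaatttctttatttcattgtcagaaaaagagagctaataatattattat
TACAT occurred in 6 of the 10 promoters (ETR1, ERS2, ETR2, EIN2, EIN3 and EBF2) and in 52% of 27443 promoters of the same length. In EBF2, the gene that rose after Al, TACAT stood 78 to 74 and 64 to 60 bases before the start. EIN2, which fell, held 3 matches, of which the pair at 61 to 57 and 57 to 53 bases shared 1 base. The longer EIN3 site was searched on both strands as ATGTACCT, ATGTATCT, ATGAACCT, ATGAATCT, ACGTACCT, ACGTATCT, ACGAACCT and ACGAATCT, of which the first pair contains ATGTA. It occurred in 5.93% of promoters and, among the 10 genes, in ERS1 alone, as matches at 76 to 69 and 70 to 63 bases that overlap by 2 bases. GCCGCC, the core of the box bound by ethylene response factors, occurred in 1.87% of promoters and in 0 of the 10. A match is a description of these letters. The annotated start lies 329 bases from the deposited one for EBF2, 265 for EBF1, 104 for ETR2, 29 for ERS1 and 0 for EIN2. For EBF2 and EBF1 the gap is wider than the 250 bases shown.

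Without Al the 10 genes had the same order of level per length in both genotypes: EBF2, EIN3, EBF1, ERS1, EIN2, ETR2, ETR1, ERS2, CTR1 and EIN4, from high to low. Since the levels of CTR1 and EIN4 are too low by an unknown amount, their true places in this order are unknown. With Al, EBF1 stood above EIN3, and EIN2 had dropped among the weaker receptors. Neighbours differed beyond their 95% counting intervals except, with Al, EIN2 from ETR2 in both genotypes, ETR2 from ERS2 in coi1-2 and EIN2 from ERS2 in Col. These intervals cover counting error only, because each group had 1 library and PCR copies are not independent molecules.

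**Figure D1:**
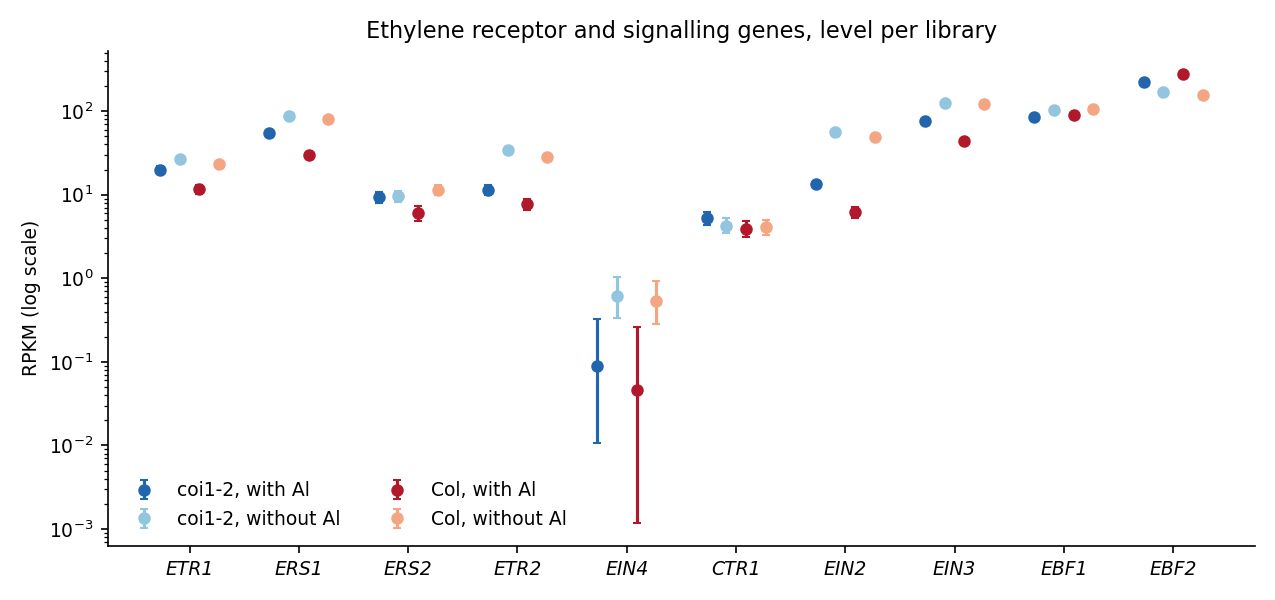
Level of the 10 ethylene genes in each library, in RPKM on a log axis, with coi1-2 in blue and Col in red, dark with Al and pale without Al. Bars are 95% counting intervals of the reads. The levels of CTR1 and EIN4 are too low by an unknown amount. EIN2 lies at 13.4 and 6.13 RPKM with Al and at 55.8 and 48.7 without, while EBF2 is the one gene whose 2 Al libraries both lie above both libraries without Al.

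Among the receptors, ETR2, a subfamily 2 receptor whose transcript is known to respond to ethylene, was read at 11.4 RPKM in coi1-2 and 7.68 in Col with Al, against 34.0 in coi1-2 and 28.2 in Col without Al. Both Al libraries lay far below both others. In edgeR's quasi-likelihood test of Al over both genotypes, with 2 libraries per arm, ETR2 fell by 1.21 on the log2 scale (SE 0.28, adjusted p = 0.000159; over all alternatives 0.000282 to 0.591). The call was lost on all 4 libraries with the offset for transcript length described below. It was also lost when the coi1-2 library without Al was left out (edgeR with Al as the only term).

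ERS1, the subfamily 1 receptor with the highest level, was read at 55.1 RPKM in coi1-2 and 30.0 in Col with Al, against 86.7 in coi1-2 and 81.3 in Col without Al. ETR1, the other subfamily 1 receptor and the first to be identified, had 19.99 RPKM in coi1-2 and 11.5 in Col with Al, against 26.8 in coi1-2 and 23.3 in Col without Al. ERS2, of subfamily 2, had 9.34 RPKM in coi1-2 and 5.96 in Col with Al, against 9.55 in coi1-2 and 11.4 in Col without Al. For all 3 the Al libraries lay below the others, as for 53.8% of loci with at least 1 RPKM in a library. The lowest value was that of Col with Al. For ERS2 in coi1-2 the gap was within counting error (log2 ratio -0.03, 95% counting interval -0.35 to 0.28). None of the 3 passed edgeR's quasi-likelihood test, with log2 fold changes of -0.53 for ERS1 (95% interval -1.09 to 0.03, adjusted p = 0.107), -0.20 for ETR1 (-0.75 to 0.35, adjusted p = 0.567) and 0.03 for ERS2 (-0.56 to 0.62, adjusted p = 0.933). ERS1 passed when the coi1-2 library with Al was left out (-0.80, edgeR adjusted p = 0.00402), and its adjusted p ranged from 0.00402 to 0.779 over the alternatives.

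EIN4, a subfamily 2 receptor, had 2 reads in coi1-2 and 1 in Col with Al, against 14 in coi1-2 and 13 in Col without Al. It stayed below 1 RPKM in all 4 libraries, and with 2 isoforms listed its true level is unknown. The interval of its read ratio reached from -5.94 to -0.64 in coi1-2 and from -8.94 to -0.79 in Col on the log2 scale. The edgeR quasi-likelihood test called it lower (log2 fold change -2.50, SE 0.85, adjusted p = 0.00919), whereas DESeq2 did not (adjusted p = 0.197). The call was also lost in edgeR when any 1 of the 4 libraries was left out (adjusted p 0.0583 to 0.163), and its adjusted p ranged from 0.0132 to 0.312 over all alternatives.

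The 5 receptors summed to 96.0 RPKM in coi1-2 and 55.3 in Col with Al, against 157.6 in coi1-2 and 144.8 in Col without Al. EIN4 enters at a level too low by an unknown amount. The shares are therefore parts of this sum and not the true make-up of the receptors. ERS1 took 57.4% of this sum in coi1-2 with Al (95% counting interval 55.1 to 59.7), 54.3% in Col with Al (51.2 to 57.4), 55.0% in coi1-2 without Al (53.2 to 56.8) and 56.2% in Col without Al (54.3 to 58.0). ETR2 took 11.9% in coi1-2 (10.6 to 13.4) and 13.9% in Col (12.0 to 16.1) with Al, against 21.5% in coi1-2 (20.2 to 23.0) and 19.5% in Col (18.1 to 20.9) without Al. The share of ERS1 thus lay within a narrow band in all libraries, whereas that of ETR2 was lower in both Al libraries by more than counting error. ETR1 took 20.8% in coi1-2 and 20.9% in Col with Al, against 17.0% in coi1-2 and 16.1% in Col without Al. ERS2 took 9.74% in coi1-2 and 10.8% in Col with Al, against 6.06% in coi1-2 and 7.88% in Col without Al. Shares over 4 single libraries carry no test.

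**Figure D2:**
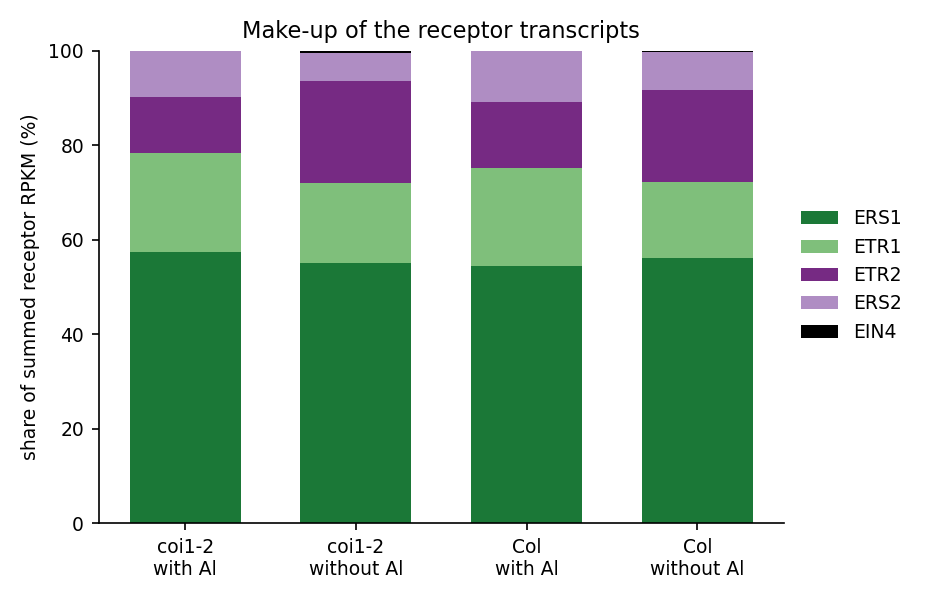
Share of each receptor in the summed receptor RPKM, as stacked bars in percent, 1 bar per library. EIN4 was read too low by an unknown amount, so its true share is unknown. ERS1 (dark green) takes 54.3% to 57.4% in all 4 libraries, and the band of ETR2 (dark purple) is thinner with Al, at 11.9% and 13.9%, than without, at 21.5% and 19.5%.

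CTR1, the kinase that the receptors keep active, was read at 5.23 RPKM in coi1-2 and 3.89 in Col with Al, against 4.28 in coi1-2 and 4.07 in Col without Al. The groups overlapped, with the highest and the lowest value both in Al libraries. Its edgeR quasi-likelihood log2 fold change of 0.62 (95% interval -0.01 to 1.26, adjusted p = 0.0924) did not pass.

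EIN2, the membrane protein through which the signal reaches the nucleus, showed the deepest drop of the 10 apart from the barely read EIN4. It had 13.4 RPKM in coi1-2 and 6.13 in Col with Al, against 55.8 in coi1-2 and 48.7 in Col without Al. Reads covered 87.7% of its transcript in coi1-2 and 57.8% in Col with Al, against 98.8% in coi1-2 and 99.2% in Col without Al. It fell by 2.00 on the log2 scale (SE 0.30, edgeR quasi-likelihood adjusted p = 2.25e-09), and it stayed called under every alternative run, with adjusted p from 8.18e-10 to 0.0233. With a length of 4803 nt it is also the longest of the 10 transcripts, which bears on the length trend described next.

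EIN3, the transcription factor that drives the response, was read at 76.1 RPKM in coi1-2 and 43.4 in Col with Al, against 124.0 in coi1-2 and 121.2 in Col without Al. The Al libraries did not overlap the others. Its log2 fold change of -0.58 did not pass edgeR's quasi-likelihood test (95% interval -1.14 to -0.01, adjusted p = 0.0806), except when the coi1-2 library with Al was left out (-0.82, adjusted p = 0.0032; over all alternatives 0.0032 to 0.821).

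EBF2, an F-box protein that targets EIN3 for degradation, was read at 222.8 RPKM in coi1-2 and 275.9 in Col with Al, against 168.7 in coi1-2 and 154.9 in Col without Al. It was the highest of the 10 in all 4 libraries, and both Al libraries lay above both others. EBF2 rose by 1.13 on the log2 scale (SE 0.31, edgeR quasi-likelihood adjusted p = 0.00103; over all alternatives 4.02e-07 to 0.156). The call was lost when the library without Al of Col (adjusted p = 0.156) or of coi1-2 (adjusted p = 0.124) was left out in edgeR with Al as the only term. EBF2 overlaps AT5G25340 on the other strand over 533 bases, and strand was not stated to be kept. AT5G25340 was read at 0.944 RPKM in coi1-2 and 0.980 in Col with Al, against 0.813 in coi1-2 and 0.967 in Col without Al. As only uniquely assigned reads were counted, these levels cannot show what the overlap does to the EBF2 counts, which was not tested. An antisense RNA, AT5G03965, also overlaps EBF2, over 187 bases, and was not analysed here.

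EBF1, its partner in that role, had 85.7 RPKM in coi1-2 and 90.5 in Col with Al, against 103.8 in coi1-2 and 106.6 in Col without Al. The Al libraries lay below the others on the RPKM scale, yet the edgeR quasi-likelihood log2 fold change, after scaling by TMM factors, was 0.26 (95% interval -0.31 to 0.83, adjusted p = 0.465). The sign of EBF1 thus depended on the scale. The median log2 ratio (Al over no Al) of all loci was 0.0016 in coi1-2 and -0.01 in Col with TMM factors, against -0.32 in coi1-2 and -0.59 in Col on the RPKM scale.

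In all, 1 of the 10 genes rose (EBF2) and 3 fell (ETR2, EIN4 and EIN2) after Al in edgeR's quasi-likelihood test at an adjusted p of 0.05. Of 16477 loci tested, 25.5% rose and 26.3% fell, so the share of the 10 that fell was near that of all loci. DESeq2 called 1 of the 10 higher and 2 lower, where 19.1% of loci were higher and 15.3% lower. The median log2 fold change was -0.37 over the 10 genes and -0.03 over all loci. On the RPKM scale, both Al libraries lay below both others for 7 of the 9 genes with at least 1 RPKM in a library (all but CTR1 and EBF2), as for 53.8% of 17514 loci. They lay above both others for EBF2 alone, as for 24.0% of loci.

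Transcript length moved with the Al response in both genotypes, and the 10 genes were long, with a median of 2780.5 nt against 1453 nt over all loci. The median log2 ratio (RPKM + 0.5) of Al to no Al was 0.10 in coi1-2 and 0.28 in Col for loci of 500 to 1000 nt, against -1.09 in coi1-2 and -1.62 in Col for loci over 4000 nt. At the lengths of the 9 genes past the filter, the trend lay between -1.07 and -0.74 in coi1-2 and between -1.65 and -1.31 in Col. EBF2 and EIN2 stood on opposite sides of it, at 1.202 for EBF2 and -0.95 for EIN2 in coi1-2, and at 2.23 for EBF2 and -1.24 for EIN2 in Col. ERS1 and EIN3 lay close to the trend, ERS1 at 0.09 and EIN3 at 0.05 in coi1-2, and ERS1 at -0.12 and EIN3 at -0.14 in Col. RNA quality was not measured in the files, and the cause of the trend was not tested.

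**Figure D3:**
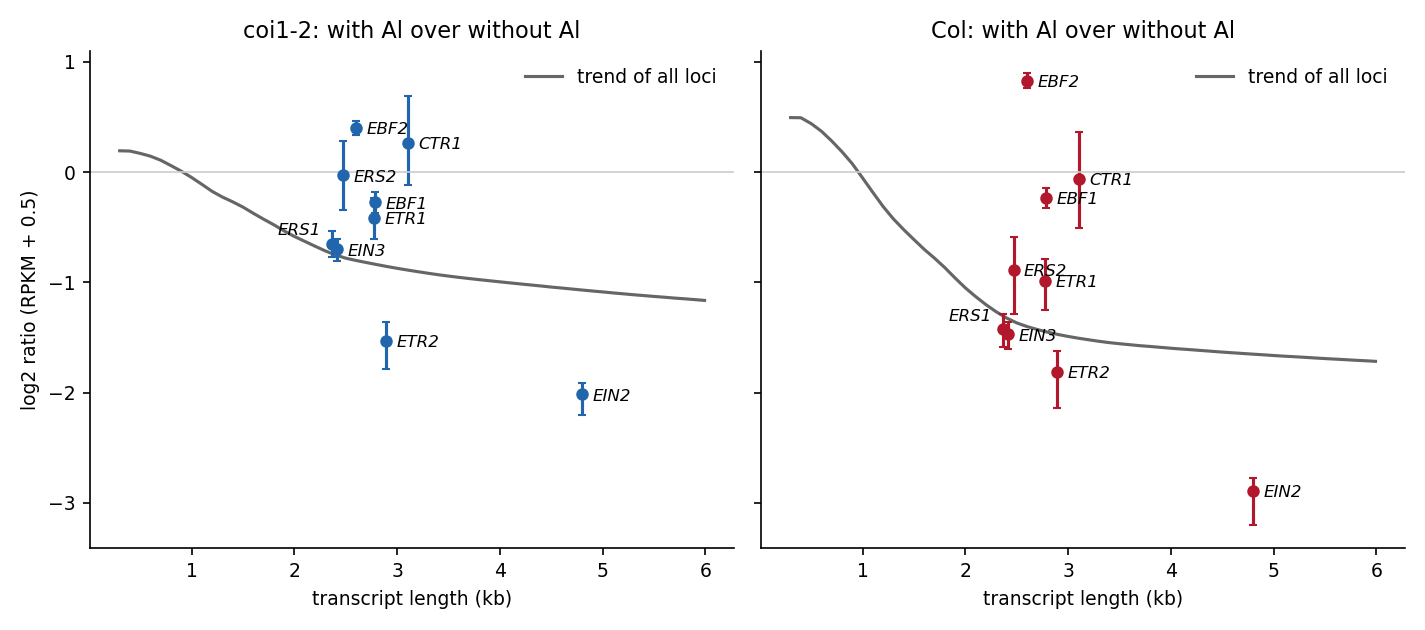
Log2 ratio (RPKM + 0.5) of Al to no Al against transcript length in kb, for coi1-2 (left) and Col (right), with 95% counting intervals and the trend of all loci as a line. EIN4, below 1 RPKM, is left out. EBF2, CTR1, EBF1, ETR1 and ERS2 lie above the line and EIN2 and ETR2 below it in both genotypes. Reads covered a short stretch of CTR1, so its distance from the line cannot be read like the others.

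With the trend removed as an offset in the same edgeR test, 5 of the 10 genes were called higher after Al and 1 lower, where 26.3% of all loci were called higher and 23.4% lower. The median of the 10 was then 0.40, against 0.01 over all loci. EIN2 was still called lower (log2 fold change -0.87, SE 0.19, edgeR adjusted p = 0.000497), at less than its value without the offset. EBF2 was called higher by a larger amount (1.93, SE 0.25, edgeR adjusted p = 4.02e-07). In the fits on all 4 libraries, EBF1 (1.11), CTR1 (1.53), ERS2 (0.78) and ETR1 (0.64) were called higher with the offset and not without it. Their adjusted p with the offset lay between 2.43e-05 and 0.00703 in edgeR. ETR2 (-0.34, edgeR adjusted p = 0.155) and EIN4 (-1.68, edgeR adjusted p = 0.0896) no longer passed, and ERS1 (0.16) and EIN3 (0.14) were near 0. The offset takes the full transcript length, which for CTR1 is 3105 nt although reads covered 227 bases of that isoform, so its corrected value cannot be read like the others.

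**Figure D4:**
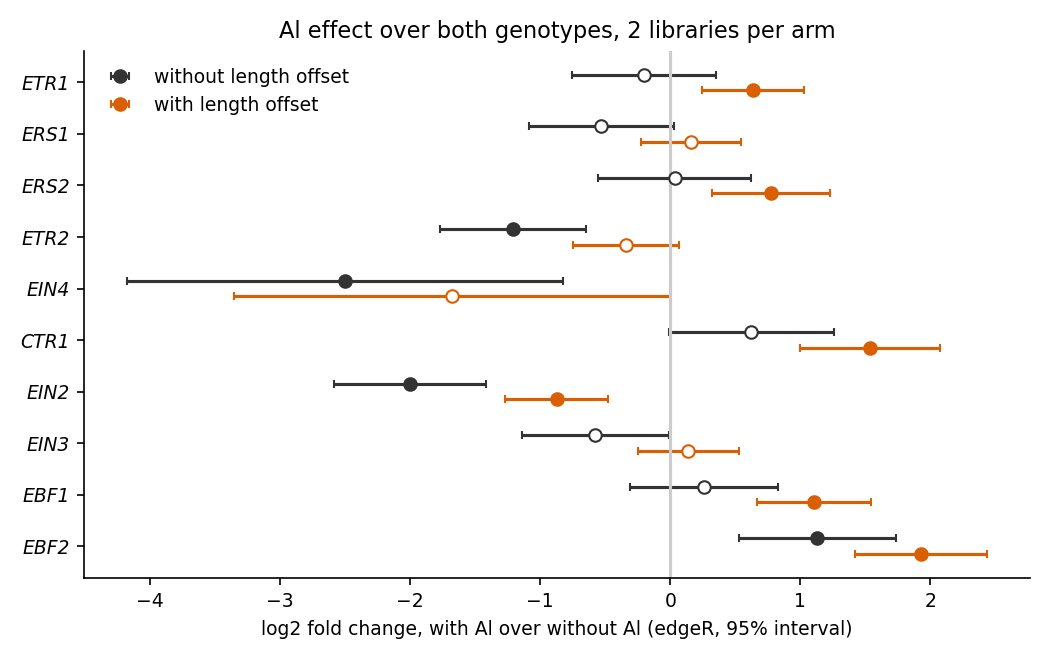
Log2 fold change of Al over both genotypes for the 10 genes in edgeR's quasi-likelihood fit, without (black) and with (orange) the offset for transcript length. Bars are 95% intervals and filled points passed an adjusted p of 0.05. EBF2 and EIN2 are filled in both fits, on opposite sides of 0.

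Set side by side, the Al response was smaller in coi1-2 than in Col for most of the 10 genes, but so it was over all loci. In comparisons of 2 libraries a gene was called when it differed at least 2-fold and its 95% counting interval excluded no change, and these comparisons carry no test. In coi1-2, ETR2 (-1.53) and EIN2 (-2.02) were lower with Al and 0 of 9 genes higher, where 23.2% of loci were lower and 9.37% higher. In Col, ERS1 (-1.42), ETR2 (-1.81), EIN2 (-2.89) and EIN3 (-1.47) were lower and 0 of 9 higher, where 35.8% of loci were lower and 11.4% higher. With TMM factors applied in Col, ETR2 (-1.17) and EIN2 (-2.26) were still called lower, ERS1 (-0.76) and EIN3 (-0.81) were not, and EBF2 (1.49) was called higher. The median over the 9 genes was -0.41 in coi1-2 and -0.98 in Col, against -0.32 in coi1-2 and -0.59 in Col over all loci. ETR1 (-0.98) just missed the size asked in Col.

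Relative to the length trend, CTR1 (1.15) and EBF2 (1.202) were higher and 0 of 9 lower in coi1-2, where 13.1% of loci were higher and 12.4% lower. In Col, CTR1 (1.45), EBF1 (1.22) and EBF2 (2.23) were higher and EIN2 (-1.24) lower, where 15.9% of loci were higher and 15.2% lower. The trend takes the full length of CTR1, of which reads covered a short stretch. The CTR1 values relative to the trend therefore cannot be read like the others. EIN2 in coi1-2 (-0.95) missed the size asked by a small margin. Subtracting the response of Col from that of coi1-2 gave 0 of 9 genes past 1 log2 unit, where 7.01% of loci were above and 1.91% below it. The differences lay between -0.43 for EBF2 and 0.87 for EIN2, with a median of 0.57 over the 9 genes and 0.25 over all loci. Relative to the trend, EBF2 alone passed (-1.04, 95% counting interval -1.13 to -0.95), where 1.92% of loci were above and 2.39% below it.

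Between coi1-2 and Col, 0 of the 10 genes passed edgeR's quasi-likelihood test over both treatments, where 0.158% of loci were higher and 0.431% lower in coi1-2. At an unadjusted p under 0.05 edgeR had 0 of the 10 genes and 1318 of all loci. DESeq2 called 0 of the 10 as well, with no adjusted p for EIN4, where 0.0182% of loci were higher and 0.0910% lower. The length offset in edgeR also left 0 of the 10, where 0.170% of loci were higher and 0.407% lower. EIN2 had the largest log2 fold change (0.50, 95% interval -0.07 to 1.07, edgeR adjusted p = 0.704) and EBF2 the lowest (-0.25, 95% interval -0.84 to 0.35, edgeR adjusted p = 0.884). The intervals of the other 7 genes with more than a few reads lay within -0.78 and 0.89, and that of EIN4 reached from -1.17 to 1.64. With genotype as the only term and 1 library left out, the log2 fold change of ETR2 spanned -0.46 to 0.999 and that of ERS1 -0.051 to 0.73.

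In the libraries without Al the genotypes lay close, with log2 ratios of coi1-2 to Col between -0.25 (ERS2) and 0.26 (ETR2). There 0 of 9 genes were called, where 1.43% of loci were higher and 1.34% lower, and likewise 0 of 9 relative to the length trend, where 1.38% were higher and 1.33% lower. With Al, EIN2 was higher in coi1-2 (log2 ratio 1.07, 95% counting interval 0.89 to 1.38), the 1 gene called of 9, where 7.87% of loci were higher and 1.87% lower. The median ratio with Al was 0.61 over the 9 genes and 0.26 over all loci. Length moved with this contrast too: the median was -0.20 at 500 to 1000 nt and 0.75 over 4000 nt. Relative to the trend EIN2 stood at 0.29 and 0 of 9 genes were called, where 1.93% of loci were higher and 1.96% lower.

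Of 11 other signalling components listed, 10 had reads and TRP1 had none. After Al, 3 of the 10 rose and 2 fell in edgeR's quasi-likelihood test, where 25.5% of all loci rose and 26.3% fell. RTE1, which promotes ETR1 activity, had 36.8 RPKM in coi1-2 and 44.6 in Col with Al, against 17.5 in coi1-2 and 13.6 in Col without Al, and rose by 1.90 (SE 0.30, adjusted p = 2.75e-08 in edgeR). ARGOS, a negative regulator of ethylene sensitivity, had 87.7 RPKM in coi1-2 and 84.2 in Col with Al, against 40.3 in coi1-2 and 31.9 in Col without Al, and rose by 1.77 (SE 0.29, adjusted p = 6.09e-08 in edgeR). Its homologue ARL had 168.6 RPKM in coi1-2 and 188.8 in Col with Al, against 100 in coi1-2 and 104.3 in Col without Al, and rose by 1.32 (SE 0.29, adjusted p = 4.15e-05 in edgeR). The 3 are short transcripts, of 739 to 1055 nt, and each was still called higher with the length offset (1.49, 1.05 and 0.77 for RTE1, ARGOS and ARL).

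RAN1, the copper pump that equips receptors with the metal they need, fell by 0.67 (SE 0.29, edgeR adjusted p = 0.0423), but stood at 0.29 with the length offset (edgeR adjusted p = 0.213). It had 68.5 RPKM in coi1-2 and 41.0 in Col with Al, against 124.8 in coi1-2 and 117.1 in Col without Al. EIL2, a relative of EIN3, was called lower (-2.42, SE 0.66, edgeR adjusted p = 0.00108) on 4 reads in coi1-2 and 2 in Col with Al, against 29 in coi1-2 and 20 in Col without Al. DESeq2 called neither RAN1 (adjusted p = 0.0664) nor EIL2 (adjusted p = 0.0905), while EIL2 passed edgeR with the offset (-2.27, adjusted p = 0.00295). EIL1, the partner of EIN3, had a log2 fold change of 0.28 (edgeR adjusted p = 0.42), and 0.90 with the offset, which passed (edgeR adjusted p = 0.0003). XRN4, the exoribonuclease that limits EBF transcripts, had -0.42 without and 0.52 with the offset, of which the offset value passed (edgeR adjusted p = 0.024). EIL3 (-0.03), and ETP1 (-0.60) and ETP2 (-0.27), F-box proteins that target EIN2, did not pass in either fit.

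Among 14 known response genes, 8 rose and 0 fell after Al in edgeR's quasi-likelihood test, where 25.5% of all loci rose and 26.3% fell. The 6 largest log2 fold changes were those of CHIB, a basic chitinase (3.32, adjusted p = 5.12e-18), HEL, a hevein-like defence protein (2.84, adjusted p = 7.93e-15), and the transcription factors ERF6 (1.72), ERF1 (1.71), ERF2 (1.54) and ERF4 (1.37), the last 4 with edgeR adjusted p between 1.89e-07 and 4.17e-05. CHIB was read at 649.2 RPKM in coi1-2 and 592.9 in Col with Al, against 93.4 in coi1-2 and 84.5 in Col without Al. ERF1 was read at 7.81 RPKM in coi1-2 and 13.7 in Col with Al, against 2.52 in coi1-2 and 7.60 in Col without Al. Several of these genes are also known targets of jasmonate or wounding. With the length offset 8 were called higher and 2 lower (EDF3 and ERF104, transcription factors), where 26.3% of all loci were higher and 23.4% lower. In Col alone, log2 ratios called EDF4 (-2.03), EDF3 (-1.28) and ERF104 (-1.21) lower after Al. They called ERF4 (1.13), ERF6 (1.03), CHIB (2.80) and HEL (2.69) higher, where 35.8% of all loci were lower and 11.4% higher. In coi1-2 alone, log2 ratios called ERF1 (1.46), ERF2 (1.74), ERF6 (1.37), CHIB (2.79) and HEL (1.96) higher. There 23.2% of all loci were lower and 9.37% higher. EDF4 (-0.12), EDF3 (-0.82) and ERF104 (-0.74) were not called in coi1-2. Without Al, EDF4 already stood at 67.4 RPKM in coi1-2 against 141.4 in Col, and with Al at 61.9 in coi1-2 and 34.4 in Col. In coi1-2 against Col, over both treatments, edgeR called 0.431% of all loci lower and 0.158% higher. There ERF2 (-1.31, edgeR adjusted p = 0.00834) and ERF6 (-1.13, edgeR adjusted p = 0.0274) were the 2 response genes called lower and 0 were called higher. Both calls ended with genotype as the only term in edgeR, with all 4 libraries or with any 1 left out, and DESeq2 called ERF6 alone.

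**Figure D5:**
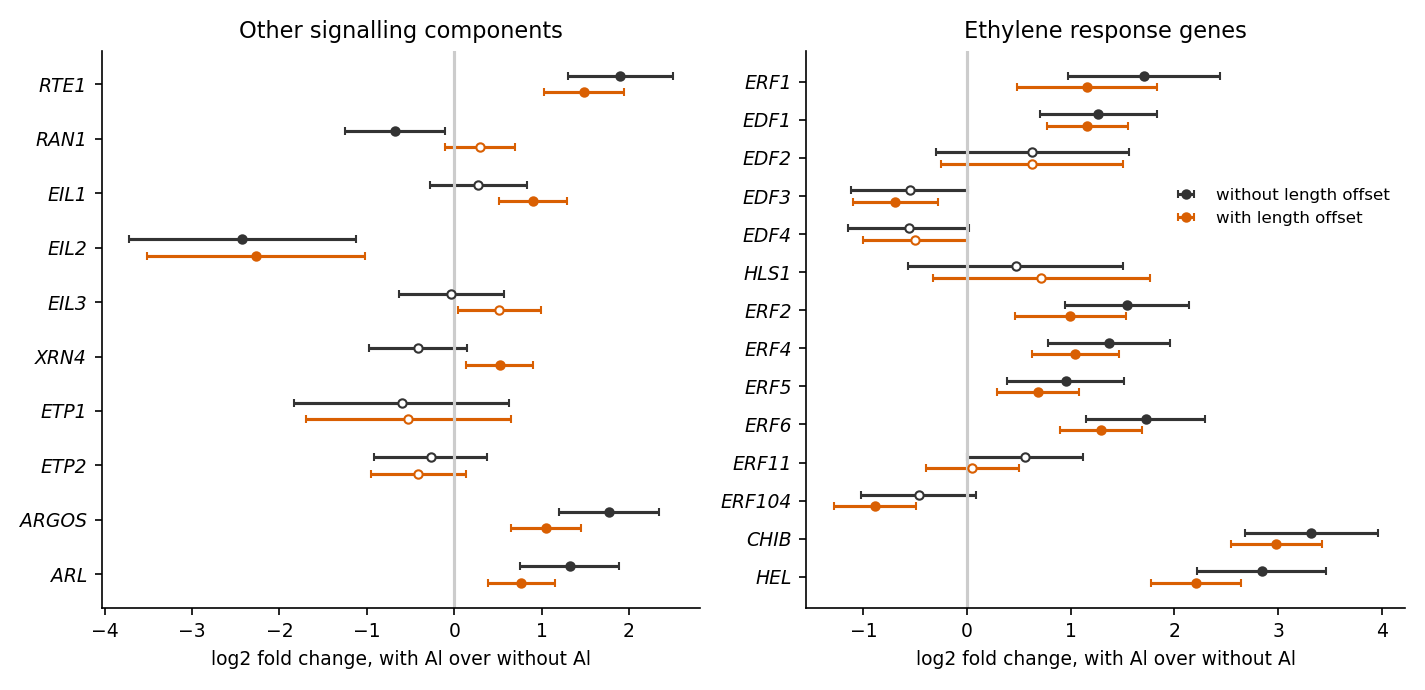
Log2 fold change of Al over both genotypes for the other signalling components (left) and response genes (right), with 95% intervals, without (black) and with (orange) the length offset in edgeR. Filled points passed an adjusted p of 0.05. RTE1, ARGOS and ARL on the left, and CHIB and HEL on the right, are filled and above 0 in both fits.

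Of 16 genes of ethylene synthesis listed, 13 were tested and 4 rose and 5 fell after Al in edgeR's quasi-likelihood test, or 4 and 4 with the length offset. Of all loci, 25.5% rose and 26.3% fell, or 26.3% and 23.4% with the offset, and these shares are the background for the marker lists as well. All 13 green shoot markers tested rose (12 with the offset) and 7 of 8 root markers fell (6 with the offset), and their part in the counts above was not tested.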

How the data were processed

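Per the labels' protocols, root poly(A) RNA was fragmented and primed with random hexamers for Illumina sequencing, with no mention of strand. Per the file headers, the authors counted unique reads per transcript, and these raw counts were deposited. Per the file headers, the deposited RPKM divides each count by transcript length and library total. Per the file headers, the deposited coverage gives the percent of each transcript that reads touch. Neither aligner nor build is named in the sources used here. Locus codes of 23189 of 23381 loci matched RefSeq's TAIR10.1 annotation, which gave gene starts, promoters and neighbours.

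Reads and RPKM were summed over isoforms, and transcripts not listed in a table counted as 0 reads. Read counts were tested with edgeR 4.0.16 in R 4.3.3 (TMM factors, filterByExpr, quasi-likelihood test, Al and genotype as additive terms, Benjamini-Hochberg adjustment over 16477 loci). The fit had 1 residual and 192.8 prior degrees of freedom and a common dispersion of 0.0385. The SE was taken as the absolute log2 fold change over the root of F. No label names separate cultures. The p-values reflect only what the additive terms leave unexplained, with spread shared over loci. In this design that remainder is the difference between the Al responses of coi1-2 and Col, in which technical error cannot be told apart. The p-values therefore do not measure spread between replicates. Comparisons of 2 libraries used log2 ratios of RPKM + 0.5 over loci with at least 1 RPKM in 1 library. They were called at 2-fold (1 log2 unit for a difference of responses) with an exact 95% Clopper-Pearson interval of the read ratio (a normal approximation for differences and receptor shares). The length trend was a lowess curve (fraction 0.3) over log2 length, used as an offset per library in edgeR. DESeq2 1.42.0, other filters, pseudocounts of 0.1 and 1, scaling factors, isoform and length choices, 1 term alone and leaving out libraries were alternatives. The additive edgeR fit and the interval of a 2-fold ratio were tested on simulated data. The length trend, its offset and the other steps were not. The 10 genes and the lists were chosen with earlier results of these data known. Named are the 10 genes, all signalling components with reads, the 6 response genes with the largest change past the threshold, and COI1. EDF3, EDF4 and ERF104 were named after their values were seen.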

Additional observations from a re-analysis of the deposited data

Results flagged for a closer look

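On the RPKM scale without further scaling, the log2 ratio of CTR1 after Al was 0.26 in coi1-2 and -0.06 in Col. With TMM factors it was 0.59 in coi1-2 and 0.53 in Col, and relative to the length trend 1.15 in coi1-2 and 1.45 in Col, so the opposite signs depend on the scaling. Reads covered a short stretch of CTR1, so its values relative to the trend cannot be read like those of other genes. EBF2 was lower in coi1-2 than in Col with Al (log2 ratio -0.31) and higher without Al (0.12). ERS2 was higher in coi1-2 than in Col with Al (0.61) and lower without Al (-0.25), whereas relative to the length trend its log2 ratio was -0.03 with Al and -0.30 without Al. Each side of these contrasts is a single library, so the differences were not tested. The counting intervals of both CTR1 ratios and of the ERS2 ratio without Al included no change.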

How the results depend on the processing

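No paired analysis was possible because each group held 1 library and the labels give no replicate numbers. DESeq2 left 2515 loci lower after Al and, in coi1-2, 3 higher and 15 lower. Median-of-ratios factors left 11 higher in coi1-2. Genotype as the only term left 0 higher and 0 lower (edgeR; 25 at an unadjusted p under 0.05), a model not run in DESeq2, and 0 higher and 0 to 9 lower with a library left out. Leaving out 1 library gave 1757 to 5008 loci higher and 1743 to 4812 lower after Al, and 0 to 5 of the 10 genes higher and 1 to 4 lower; the runs with the length offset among these were added after seeing the data. The offset, with the longest or read-weighted length, gave 5 of 10 higher and 1 lower after Al and turned ETR1 (0.64 with both lengths), ERS1 (0.16) and EIN3 (0.14). For coi1-2 against Col it turned ERS2 (-0.25), ETR2 (-0.061 and -0.063), CTR1 (-0.27) and EIN3 (-0.0086 and -0.010), none called. With TMM factors, 1 of 9 was higher and 2 lower after Al in Col, and 0 higher in coi1-2 with Al against Col; relative to the trend, 3 and 1 in Col after Al, 2 and 0 in coi1-2, 0 higher in coi1-2 with Al, and 1 lower for the difference of responses. Leaving out 1 library, log2 fold changes spanned for Al -0.43 to 0.70 (ETR1), -0.80 to 0.20 (ERS1), -0.13 to 0.93 (ERS2) and -0.82 to 0.15 (EIN3), and for genotype -0.051 to 0.73 (ERS1), -0.15 to 0.20 (ERS2), -0.46 to 0.999 (ETR2), -1.43 to 2.22 (EIN4), -0.28 to 0.43 (CTR1), -0.76 to 1.91 (EIN2), -0.13 to 0.69 (EIN3), -0.42 to 0.0024 (EBF1) and -0.94 to 0.55 (EBF2). The cause was not tested beyond the change of terms or libraries. Pseudocounts, filters and the most-read isoform moved the counts of the 10 genes by less than 1.5 times. Depth limits EIN4 most: 3 reads equal 0.134 RPKM in coi1-2 and 0.140 in Col with Al.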

Other observations

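Over the 4 libraries, ERS1 and EIN3 had the most similar profiles among the 10 genes (Euclidean distance 0.0784 between centred log2 profiles), and EIN2 and EBF2 the least similar (3.22). Of 11077 loci with a mean of at least 5 RPKM, 331 lay within 0.5 of EIN2, the 3 nearest being ORP1A (AT2G31020, distance 0.0535), EDA7 (AT3G56990, 0.0867) and AT5G23890 (0.09). ORP1A was read at 4.53 RPKM in coi1-2 and 1.79 in Col with Al, against 19.8 in coi1-2 and 16.9 in Col without Al. Within 0.5 of EBF2 lay 1610 loci, the 3 nearest being AT4G00895 (0.0324), AT1G35250 (0.0385) and TIM17-2 (AT2G37410, 0.0484), of 686 to 1162 nt, against 2600 nt for EBF2. TIM17-2 was read at 9.09 RPKM in coi1-2 and 11.5 in Col with Al, against 7.07 in coi1-2 and 6.18 in Col without Al. With 4 libraries, likeness is a description and says nothing of shared control.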
